A study of Mus musculus with 2 samples.

Results

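The genes described here encode glycosyltransferases, which build sugar chains on proteins and lipids, and the enzymes that place or remove sulfate on those chains. They were chosen by gene symbol: the sialyltransferase (St3gal, St6gal, St8sia), fucosyltransferase (Fut), Galnt, Gcnt, Mgat, B3gnt, B3gal and B4gal families, the heparan sulfate enzymes (Ext, Extl, Ndst, Hs2st, Hs3st, Hs6st, Sulf), the Chst sulfotransferases and the hyaluronan synthases (Has). The array held 98 such genes of 12393 in all, read by 153 probe sets, and each gene was represented by its brightest probe set. Transcript levels came from epithelial cells of the mouse uterus on day 4 of pregnancy, in a control described as Stat3 flox and in a Stat3 knockout. Stat3 encodes the transcription factor that acts downstream of leukaemia inhibitory factor and of interleukin 6 type cytokines. Strain, age and the Cre line that removed Stat3 are not named in the labels, and both sample titles name the floxed control, so the genotype label was used. Each group was 1 array of pooled RNA (n = 3 per pool), so no difference has a replicate check and no p-value was computed.

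The uterine surface epithelium is covered by a thick glycan coat that the embryo meets first. Mucin-type O-glycans start with N-acetylgalactosamine added by the Galnt enzymes, are branched by the Gcnt enzymes and are lengthened with galactose and N-acetylglucosamine. N-glycans are transferred whole in the endoplasmic reticulum, trimmed, and branched by the Mgat enzymes in the Golgi. Sialic acid and fucose cap the chain ends, and heparan sulfate on proteoglycan cores binds growth factors through sulfate groups whose positions the sulfotransferases and sulfatases set. Which epithelial glycan enzyme transcripts differ when Stat3 has been deleted is the question this comparison addresses.

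Values are MAS5 signals, the background-corrected brightness of a probe set on a linear scale, and signals of different probe sets cannot be ranked against each other. Signals under a floor of 14.0, the 40th percentile of all signals, were set to the floor. A gene under it on 1 array has a fold written as "at least", and a gene under it on both arrays has no ratio. The median over all probe sets was 32.1 for the control array and 30.7 for the knockout array. Stat3 itself had signals of 582 and 186 in its brightest probe set (32.0% of control) and of 430.0 and 160.0 in another (37.2%), and was under the floor on both arrays in the remaining one. Whether these probe sets lie in the deleted part was not determined. The 8 epithelial markers summed to 20522 in the control and 20672 in the knockout, as deposited signals with sub-floor ones included, as in the sums that follow. Of these 8, Krt7 was past 2-fold lower (1592 and 460), Cdh16 was over the floor in the control only, and the other 6, Krt8, Krt18, Krt19, Epcam, Cdh1 and Cldn7, were within 2-fold. The 10 stromal markers summed to 2334 and 3184, with Hand2 and Postn under the floor on both arrays. The 10 leukocyte markers on the array summed to 441 and 644, with Cd3e, Itgam, Ncr1 and Nkg7 under the floor on both. Among the leukocyte markers, C1qa was past 2-fold higher (33.2 and 67.4), while Cd68 went the other way within 2-fold (81.1 and 44.4). The 6 smooth muscle markers summed to 146 and 103, with Myh11, Des, Cnn1 and Actg2 under the floor on both arrays. The 6 endothelial markers summed to 55.2 and 49.3, with 5 of 6 under the floor on both. The 4 gland markers on the array summed to 67.0 and 46.2, where Lif went from 29.8 to under the floor and Foxa2 had 22.0 and 23.9. In such bulk RNA, fewer cells of a type and less RNA per cell cannot be told apart, and the part of these markers' cells in the values that follow was not tested.

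Of the 98 genes, 55 had a signal over the floor on 1 array or both (13 on 1 and 42 on both), and 43 had none. Past 2-fold on the lower side were 9 of the 55 (16.4%), beside 9.92% of 8304 genes over the floor on the whole array. Past 2-fold on the higher side were 7 of 55 (12.7%), beside 7.37% of all. Among the 42 over the floor on both, 11 (26.2%) were past 2-fold in either direction, beside 15.7% of 7513 genes. Split by the brighter array's signal, 3 of 18 genes of the families under 50 were past the limit (16.7%, beside 13.6% of 1709 genes), 6 of 18 from 50 to 200 (33.3%, beside 19.3% of 3013) and 7 of 19 from 200 up (36.8%, beside 17.4% of 3582). The knockout over control log2 ratio had a median of -0.01 for the 55 genes and 0.05 for all genes, with quartiles of -0.53 and 0.52 against -0.40 and 0.46. The middle of the list thus lay near that of the array, and the genes past the limit stood on both sides. The lower genes were Sulf2, St6gal1, Chst7, Galnt3, Galnt4, B3gnt3, Fut2, Fut8 and B3galnt1, and the higher ones Chst10, St6galnac1, St3gal1, Gcnt3, B3gnt5, B3gntl1 and Galnt11. Of the genes past the limit, the closest to it were Galnt11 at 2.01-fold higher and B3galnt1 at 2.10-fold lower. Of the genes within 2-fold, the closest were Hs3st1 at 1.84-fold lower and B4galt3 at 1.71-fold higher.

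**Figure D1:**
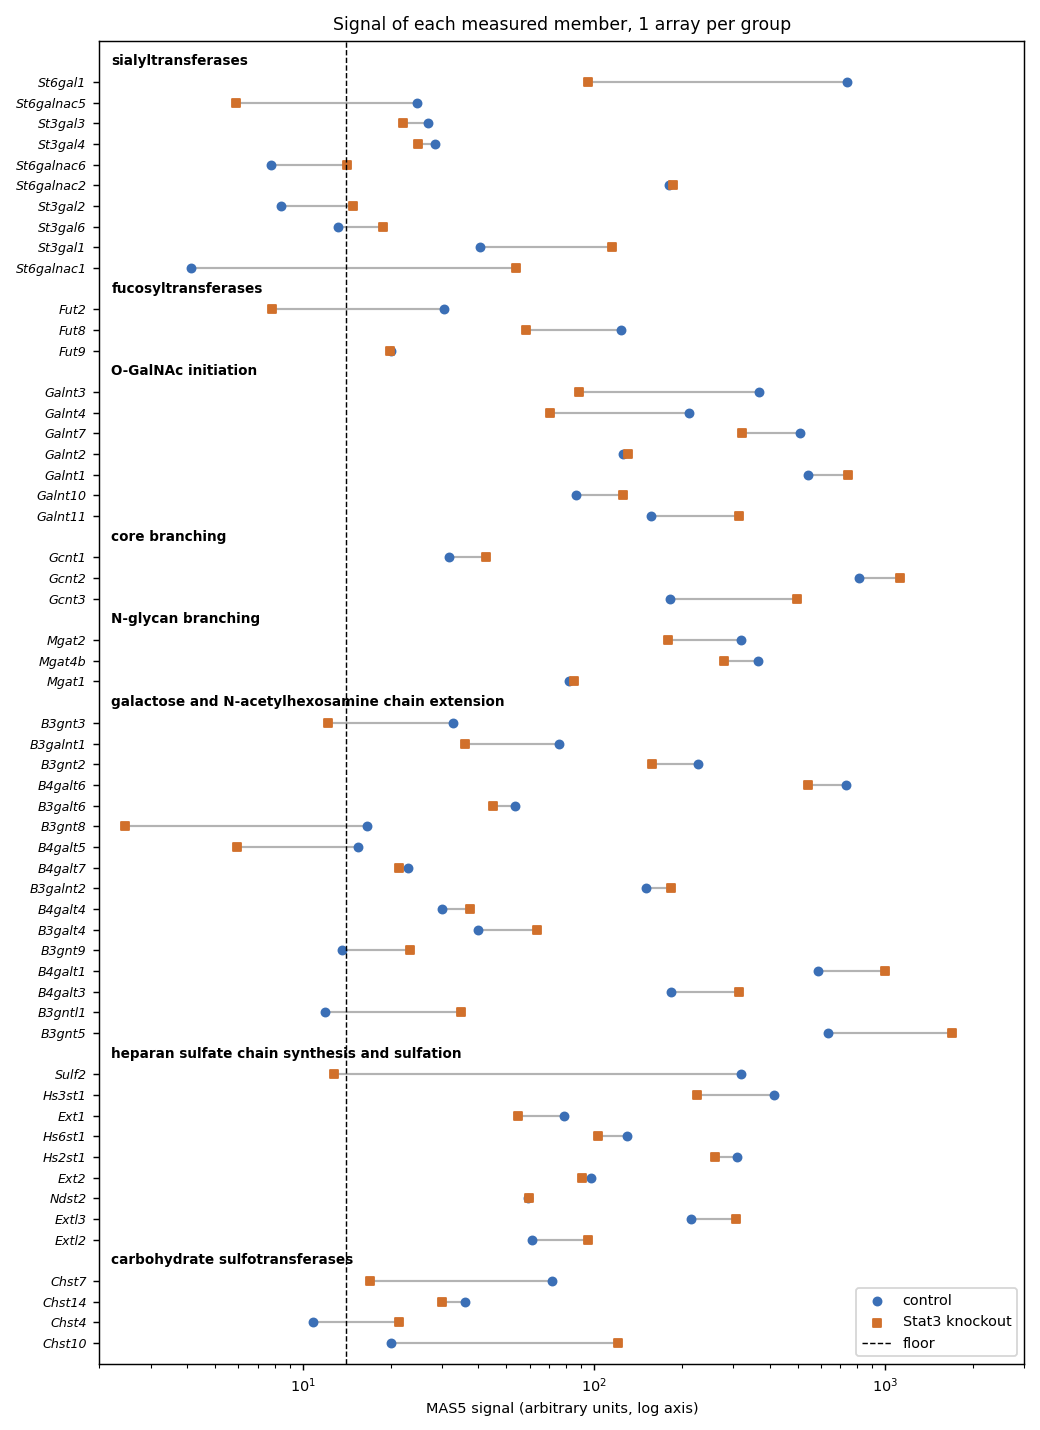
MAS5 signal (log axis) of the 55 genes with a ratio, grouped by role; each row joins the control array (circle) to the Stat3 knockout array (square), and the dashed line is the floor of 14.0. Sulf2 runs from 319 to under the floor and St6gal1 from 739 to 95.6, while Chst10 runs the other way, from 20.1 to 121.

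**Figure D2:**
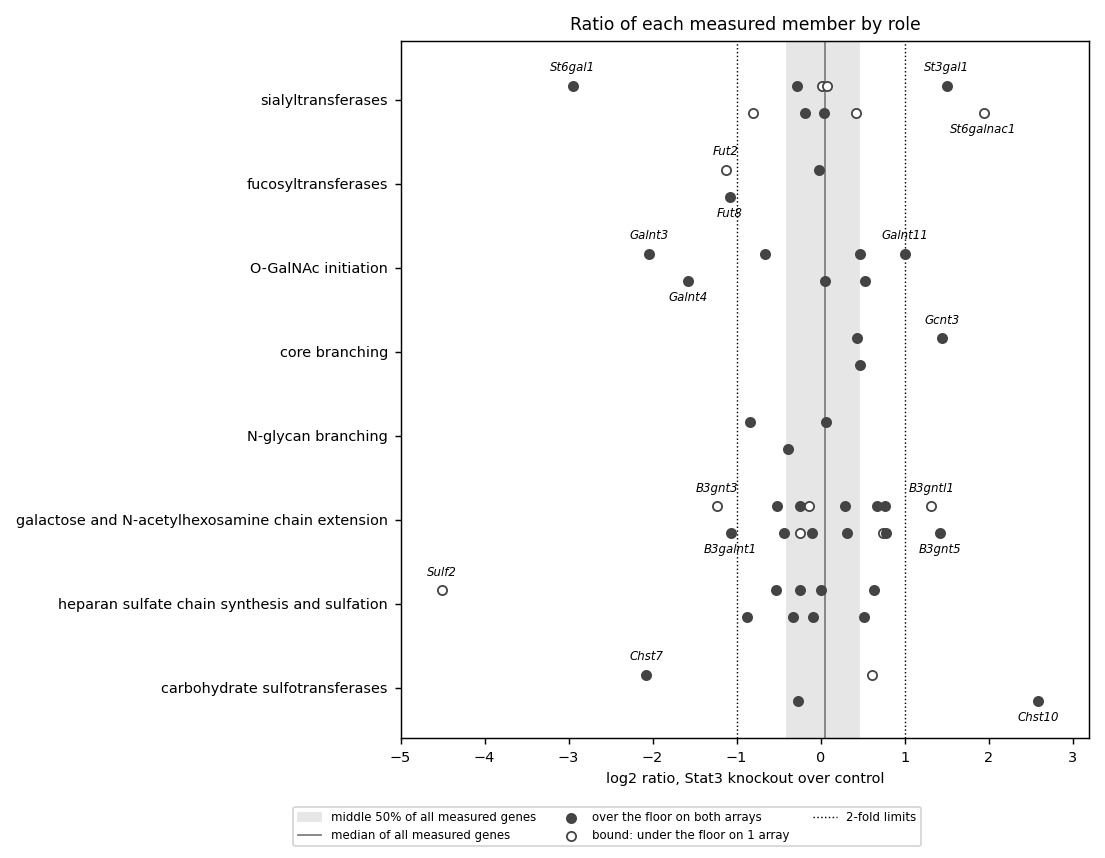
log2 ratio of knockout over control for the same 55 genes by role, with filled points for genes over the floor on both arrays, open points for bounds, dotted lines at 2-fold, a grey band for the middle 50% of all 8304 measured genes (-0.40 to 0.46) and a line at their median (0.05). Each role with several genes past 2-fold, other than the fucosyltransferases, has them on both sides.

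Because the deleted factor binds DNA, the stretch of 250 bases before the annotated gene start was searched for the STAT core motif TTCNNNGAA and its wider form TTCNNNNGAA, where N is any base. Each motif reads the same on both strands, and the 2 forms were searched separately, overlaps included. RefSeq windows (GRCm38.p6) were at hand for 73 of the 98 genes, 101 windows in all. TTCNNNGAA was found in 4 of these windows (3.96%), those of B4galt1, Gcnt2, Mgat2 and B3galt5, beside 7.02% of 32851 windows of all genes. TTCNNNNGAA was found in 3 (2.97%), those of Extl2, Gcnt1 and Mgat4c, beside 5.85% of all. Of the 16 genes past 2-fold, 11 had windows, 18 in all, and 0 of them held either motif. That says only that these letters are not in these windows. The windows of Sulf2, which has the lowest ratio, and of Chst10, which has the highest ratio of those measured on both arrays, are shown, with those of the 3 genes over the floor that hold TTCNNNGAA, whose letters are in capitals.
Sulf2, the upstream start, chr2:166155684-166155933, minus strand: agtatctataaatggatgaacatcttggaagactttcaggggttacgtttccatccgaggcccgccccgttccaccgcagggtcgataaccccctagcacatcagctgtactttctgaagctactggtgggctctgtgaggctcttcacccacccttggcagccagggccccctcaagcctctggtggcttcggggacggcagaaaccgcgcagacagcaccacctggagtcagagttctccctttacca
Sulf2, the downstream start, chr2:166155286-166155535, minus strand: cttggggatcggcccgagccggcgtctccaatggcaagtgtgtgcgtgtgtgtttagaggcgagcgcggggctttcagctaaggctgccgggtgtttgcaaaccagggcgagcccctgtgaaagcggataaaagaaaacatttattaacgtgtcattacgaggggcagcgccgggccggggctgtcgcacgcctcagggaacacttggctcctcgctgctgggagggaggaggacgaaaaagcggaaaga
Chst10, chr1:38898161-38898410, minus strand: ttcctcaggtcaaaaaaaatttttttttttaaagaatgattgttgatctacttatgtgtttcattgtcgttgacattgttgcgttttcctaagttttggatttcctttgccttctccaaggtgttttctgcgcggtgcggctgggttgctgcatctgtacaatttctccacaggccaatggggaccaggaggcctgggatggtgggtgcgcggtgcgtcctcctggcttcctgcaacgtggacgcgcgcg
B4galt1, chr4:40853985-40854234, minus strand: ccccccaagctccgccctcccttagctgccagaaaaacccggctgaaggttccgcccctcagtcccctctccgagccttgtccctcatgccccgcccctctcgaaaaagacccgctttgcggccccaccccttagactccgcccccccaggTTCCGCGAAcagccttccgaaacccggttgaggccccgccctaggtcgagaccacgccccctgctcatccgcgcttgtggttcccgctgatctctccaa
Gcnt2, chr13:40886508-40886757, plus strand: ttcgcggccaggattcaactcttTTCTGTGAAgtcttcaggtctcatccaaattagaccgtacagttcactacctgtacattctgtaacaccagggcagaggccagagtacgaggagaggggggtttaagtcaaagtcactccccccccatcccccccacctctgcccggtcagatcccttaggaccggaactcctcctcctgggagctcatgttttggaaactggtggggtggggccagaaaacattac
Mgat2, chr12:69183908-69184157, plus strand: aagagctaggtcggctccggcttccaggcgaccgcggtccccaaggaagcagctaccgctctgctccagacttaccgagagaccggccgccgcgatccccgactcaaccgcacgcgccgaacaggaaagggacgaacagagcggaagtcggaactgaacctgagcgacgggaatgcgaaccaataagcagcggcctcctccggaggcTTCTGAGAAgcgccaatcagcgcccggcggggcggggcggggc
The motif lies 99 bases before the start in B4galt1, 227 bases before one of 3 annotated starts in Gcnt2, and 43 bases before it in Mgat2. These 3 genes were all within 2-fold, with log2 ratios of 0.77, 0.47 and -0.84.

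Of the 18 sialyltransferase genes, 10 had a ratio and 3 of these were past 2-fold: St6gal1 was lower, and St3gal1 and St6galnac1 were higher. St6gal1, the main enzyme that caps N-glycan galactose with alpha-2,6-linked sialic acid, had 739 in the control and 95.6 in the knockout, 7.73-fold lower, or 12.9% of control. It was the largest decrease among these genes measured over the floor on both arrays. Its other probe set was under the floor on both (7.08 and 4.74). St3gal1, which adds alpha-2,3-linked sialic acid to the galactose of core 1 O-glycans, had 40.5 and 115, 2.83-fold higher. St6galnac1, which makes the sialyl-Tn antigen by adding sialic acid directly to the first sugar of O-glycans, had 4.14 in the control, under the floor, and 53.9 in the knockout, at least 3.84-fold higher. The related St6galnac2 had 181 and 186, a 1.03-fold difference, so the ratios of these related genes differed from each other.

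The remaining sialyltransferases were dim. St3gal3 and St3gal4, which act on galactose of lactosamine chains, had 26.8 and 22.0, and 28.4 and 24.9. St3gal2, St3gal6 and St6galnac6 were over the floor in the knockout only (14.8, 18.8 and 14.2), which bounds their ratios at 1.05-fold, 1.34-fold and 1.01-fold higher. St6galnac5 went from 24.6 to under the floor, at least 1.75-fold lower. The ganglioside enzyme genes St3gal5 and St8sia1 and the polysialic acid enzyme genes St8sia2 and St8sia4 were under the floor on both arrays, with St6galnac3, St6galnac4, St8sia3 and St8sia5. In all, 1 of 10 sialyltransferase genes with a ratio was lower (10%, beside 9.92% of all genes). On the higher side were 2 (20%, beside 7.37%), and 7 lay within 2-fold. The median log2 ratio was 0.03.

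The fucosyltransferase genes with a ratio were 3 of 7, and 2 of these were at least 2-fold lower (66.7%, beside 9.92% of all genes). Fut8, the only enzyme that adds core fucose to N-glycans, had 124 in the control and 58.6 in the knockout, 2.11-fold lower. Fut2, which makes the H blood group antigen on epithelial glycans, had 30.6 in the control and 7.82 in the knockout, under the floor, at least 2.18-fold lower. The Fut8 difference was close to the limit, while that of Fut2 is a minimum, with a log2 ratio of -1.97 with no floor. Each gene has 1 probe set. Fut9, which makes the Lewis X structure, had 20.1 and 19.9. Fut1, the other enzyme for the H antigen, and Fut4 and Fut7, which make Lewis X and sialyl Lewis X, were under the floor on both arrays, with Fut10. Gfus, whose product makes the fucose donor GDP-fucose, had 360 and 267 (log2 ratio -0.43).

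The Galnt genes, which start mucin-type O-glycans, were split by isoenzyme. Galnt3, known for protecting the hormone FGF23 from cleavage, had 367 in the control and 89.1 in the knockout, 4.12-fold lower. Galnt4, which prefers peptides that already carry a sugar, had 211 and 70.6, 2.99-fold lower. Dimmer probe sets of both had the same direction, with 17.5 and 2.49 for Galnt3 (at least 1.25-fold lower) and 20.9 and 10.3 for Galnt4 (at least 1.49-fold lower). Galnt11 had 157 and 315, 2.01-fold higher, which fell within 2-fold when the arrays were centred on the median or by loess.

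The widely expressed Galnt1 and Galnt2 had 540 and 746, and 125 and 130.3, both within 2-fold, unlike Galnt3 and Galnt4. Galnt7, another enzyme that follows earlier ones, had 509 and 323, with its other probe sets at 238 and 140.3, and 67.9 and 66.7. Galnt10 had 86.6 and 125, and its dimmer probe set pointed the other way (40.1 and 36.5). Galnt6, Galnt16 and Galntl5 were under the floor on both arrays. The 7 measured Galnt genes had a median log2 ratio of 0.06, between -2.04 and 1.01.

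The 3 Gcnt branching genes all had a ratio over 0, and 1 was past the limit (33.3%, beside 7.37% of all genes). Gcnt3, the mucin-type enzyme that makes core 2 and core 4 branches, had 182 in the control and 497 in the knockout, 2.73-fold higher. Gcnt1, which makes core 2, had 31.6 and 42.6, and Gcnt2, which branches lactosamine chains into the I antigen, 809 and 1123. Gcnt2 has several probe sets: 2 dimmer ones were just past the limit (50.2 and 102, and 37.7 and 82.3) and another was not (16.5 and 21.1). C1galt1c1, the chaperone of the core 1 enzyme that acts before these branches, had 364 and 358.

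The branching genes of N-glycans lay within 2-fold. Mgat1, whose enzyme opens the path to complex N-glycans, had 81.8 and 85.5. Mgat2, which starts the second branch, had 319 and 179, 1.78-fold lower, and its dimmer probe set 42.6 and 36.3. Mgat4b, which adds a further branch, had 364 and 278. Mgat3, Mgat4c, Mgat4d and Mgat5 were under the floor on both arrays. At the earlier steps of N-glycans, 25 genes act on the lipid-linked precursor and its transfer. Of these, 3 were at least 2-fold lower (12%, beside 9.92% of all genes) and 0 were higher (beside 7.37%). A ratio under 0 was found for 19 of the 25, beside 3873 of 8304 genes. The median log2 ratio was -0.34, beside 0.05 for all genes. Alg13 and Alg3, which act in the assembly of the precursor, had 46.1 and 15.2 (3.03-fold lower) and 67.0 and 26.9 (2.50-fold lower). Krtcap2, a subunit of the oligosaccharyltransferase, had 627 and 306, 2.05-fold lower, with 396 and 212 in its other probe set. The bright transferase subunit genes Rpn1 and Ost4 stayed within 2-fold, with 1915 and 1551, and 1242 and 1129. Of 11 measured trimming genes, 2 were lower (18.2%, beside 9.92% of all genes) and 0 higher (beside 7.37%). Man2a1, a Golgi mannosidase gene of the step between Mgat1 and Mgat2, had 224 and 78.6 (2.86-fold lower). Mogs, which removes the first glucose, had 274 and 125 (2.18-fold lower). Ganab and Prkcsh, the glucosidase II subunits that act next, had 275 and 191, and 252 and 228.

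Of the 16 measured genes that extend chains with galactose or N-acetylhexosamines, 2 were lower, 2 were higher and 12 lay within 2-fold. The lower and higher shares were 12.5% each, beside 9.92% and 7.37% of all genes. B3gnt5, which makes lactotriaosylceramide and so starts the lacto-series glycolipids, had 633 in the control and 1696 in the knockout, 2.68-fold higher, and its other probe set had 34.7 and 107 (log2 ratio 1.63). B3gntl1 had 11.9, under the floor, and 35.0, at least 2.49-fold higher. Its span overlaps that of Tbcd, which had 354 and 634. Among the other genes past 2-fold, Galnt4, Chst7 and Chst10 also overlap protein-coding genes (Poc1b, Slc9a7 and Gm51581), which had no value here. B3gnt3, which extends core 1 O-glycans, had 32.9 and 12.2, under the floor, at least 2.34-fold lower.

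B3galnt1, which makes the globo-series glycolipid globoside from its precursor Gb3, had 75.5 and 36.0, 2.10-fold lower. The genes before and beside it on the globo-series path also differed. A4galt, which makes Gb3, had 108 and 445, 4.11-fold higher. Gla, the lysosomal enzyme that breaks Gb3 down, had 75.5 and 21.9, 3.44-fold lower, although its other probe set had 8.08, under the floor, and 14.5 (log2 ratio of at least 0.05). Thus the gene for making Gb3 was higher, and those for both of its outlets were lower in their brightest probe sets, each on 1 array. These genes were named because they were past 2-fold, and no glycolipid was measured. B4galt6, which makes the lactosylceramide that both glycolipid series start from, had 731 and 541, and its other probe sets lay on both sides of 0, between -0.42 and 0.37.

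The galactosyltransferase gene B4galt1, which builds lactosamine on many glycoproteins, had 586 and 997, 1.70-fold higher, and B4galt3 had 183 and 314, 1.71-fold higher. B4galt4 had 30.1 and 37.5, and B4galt7 and B3galt6, which build the linker of proteoglycans, 23.0 and 21.4, and 53.6 and 45.1. B3gnt2, which extends polylactosamine, had 227 and 159, and B3galnt2 151 and 184. B3galt4, which makes gangliosides of the GM1 type, had 40.1 and 63.7. B4galt5 and B3gnt8 were over the floor in the control only (15.5 and 16.7), and B3gnt9 in the knockout only (23.4). B3galt1, B3galt2, B3galt5, B3gnt4, B4galnt1, B4galnt2 and B4galt2 were under the floor on both arrays.

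Among the heparan sulfate genes, the lowest ratio belonged to the enzyme that acts after secretion. Sulf2, which removes 6-O-sulfate from finished heparan sulfate at the cell surface, had 319 in the control and a sub-floor 12.8 in the knockout, which bounds it at 22.7-fold lower or more. Its single probe set is of a kind that can read several transcripts. The genes that build and sulfate the chain stayed within 2-fold. The polymerase subunit genes Ext1 and Ext2 had 79.1 and 54.7, and 97.2 and 91.1, and Extl3, whose product starts the chain, 214 and 306. Extl2 had 61.1 and 95.3, and 43.4 and 90.4 (log2 ratio 1.06) in its dimmer probe set. Ndst2, a sulfotransferase that opens the series of modifications, had 59.3 and 59.6, and Hs2st1 had 309 and 260. The 6-O-sulfotransferase gene Hs6st1, whose product sets the groups that Sulf2 removes, had 130 and 103. Hs3st1, which makes the site that binds antithrombin, had 415 and 226, 1.84-fold lower. In all, 1 of 9 genes with a ratio was lower (11.1%, beside 9.92% of all genes) and 0 were higher (beside 7.37%). Their median log2 ratio was -0.25. Extl1, Hs3st3a1, Hs3st3b1, Hs6st2, Hs6st3, Ndst3 and Ndst4 were under the floor on both arrays.

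Some genes for core proteins that carry heparan sulfate were lower as well. Sdc1, the main syndecan of epithelia, had 273 in the control and 32.4 in the knockout, 8.41-fold lower, and its next brightest probe set had 221 and 20.9 (log2 ratio -3.40). Sdc2 had 84.4 and 28.4, 2.97-fold lower, and 67.1 and 29.8 in its next probe set. Sdc4 had 1246 and 1736, within 2-fold, while its other probe set had 669 and 1510 (log2 ratio 1.18), so the syndecans were not lower together. Nrp1 and Cd44, receptors that can carry glycosaminoglycan chains, went from 80.1 and 39.9 to under the floor, at least 5.71-fold and 2.84-fold lower. Of the 15 measured core genes, 4 were lower (26.7%, beside 9.92% of all genes) and 1 was higher (6.67%, beside 7.37%). The other 10 lay within 2-fold, and the median log2 ratio was 0.11. The higher one was the glypican gene Gpc3, with 16.9 and 35.9, 2.13-fold higher. The list of core genes also holds Dcn, at 1235 and 1753. Dcn is itself 1 of the 10 stromal markers summed to 2334 and 3184, and makes the largest part of that sum. Glce, the epimerase that turns glucuronic into iduronic acid in heparan sulfate, had 311 and 801, 2.57-fold higher, and 6.34, under the floor, and 21.3 in its other probe set.

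The Chst sulfotransferase genes were mostly under the floor: 4 of 11 had a ratio, and the 2 past the limit lay on opposite sides. The lower and higher shares were 25% each, beside 9.92% and 7.37% of all genes. Chst10, which adds the sulfate of the HNK-1 carbohydrate, had 20.1 in the control and 121 in the knockout, 6.02-fold higher, the largest increase of the 42 genes measured on both arrays. Chst7, which sulfates chondroitin and N-acetylglucosamine at the 6 position, had 71.7 and 17.0, 4.22-fold lower. Each has 1 probe set. Both signals at the low end were near the floor, so their folds depend on it. Chst14, the dermatan sulfotransferase gene, had 36.2 and 30.1. Chst4, which sulfates L-selectin ligands, had 10.8, under the floor, and 21.5, at least 1.53-fold higher. Chst1, Chst2, Chst3, Chst5, Chst11, Chst12 and Chst15 were under the floor on both arrays, as were the hyaluronan synthase genes Has1, Has2 and Has3. Of 9 measured chondroitin, linker and protein sulfation genes outside the Chst family, 1 was lower and 1 higher. These shares were 11.1% each, beside 9.92% and 7.37% of all genes, and the median log2 ratio was 0.20. The lower one was Tpst1, which sulfates tyrosine (64.8 and 24.5, 2.64-fold), and the higher one was Glce. Fam20b and Csgalnact2 had 336 and 367, and 77.9 and 119.

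Most genes that supply sugar and sulfate donors lay within 2-fold. Of 19 measured genes for nucleotide sugars, 1 was at least 2-fold higher (5.26%, beside 7.37% of all genes) and 0 were lower (beside 9.92%). Their median log2 ratio was -0.16. The higher one was Gne, which opens sialic acid synthesis, with 32.3 and 68.0, 2.10-fold. Ugp2, which makes UDP-glucose, had 1103 and 1851. Of 16 measured donor transport and sulfate activation genes, 1 was higher (6.25%, beside 7.37% of all genes) and 0 were lower (beside 9.92%). Their median log2 ratio was 0.16. The higher gene was Slc35a5, a nucleotide sugar transporter family member, with 99.9 and 273 (2.73-fold). A dimmer Slc35a5 probe set had 22.8 and 69.9, and the others were under the floor on both arrays. Slc35b1 and Bpnt2 had 359 and 237, and 447 and 334.

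Of 13 other measured glycosyltransferase genes, 1 was higher (7.69%, beside 7.37% of all genes) and 2 were lower (15.4%, beside 9.92%). The higher one was A4galt. The lower ones were Colgalt1, which glycosylates collagen (292 and 145, 2.00-fold, just past the limit), and Pomt1. Pomt1, which starts O-mannose chains, had 28.9 and 12.5, under the floor, at least 2.06-fold lower. The dimmer Colgalt1 probe set had 108 and 81.5. Ogt, which adds single N-acetylglucosamine to nuclear and cytoplasmic proteins, had 438 and 660.3. Of 22 measured genes for glycan breakdown, 2 were lower (9.09%, beside 9.92% of all genes) and 3 were higher (13.6%, beside 7.37%). Their median log2 ratio was 0.14. Besides Gla, the lower one was Gusb, lysosomal beta-glucuronidase, with 503 and 139 (3.63-fold lower) and 103 and 35.1 in its other probe set. Neu2, a sialidase gene, and Galc, which breaks down galactosylceramide, had sub-floor readings of 5.59 and 0.471 in the control, against 46.2 and 37.6 in the knockout, at least 3.29-fold and 2.68-fold higher. The other Galc probe sets were under the floor on both arrays. The remaining higher gene, Hgsnat, was over the floor on both arrays, with 159 and 392, 2.46-fold higher. Fuca1 and Hexa had 947 and 927, and 432 and 831.

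Over all 142 measured genes of these other glycan lists, 14 (9.86%) were lower and 9 (6.34%) were higher, shares close to the 9.92% and 7.37% of the whole array.

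**Figure D3:**
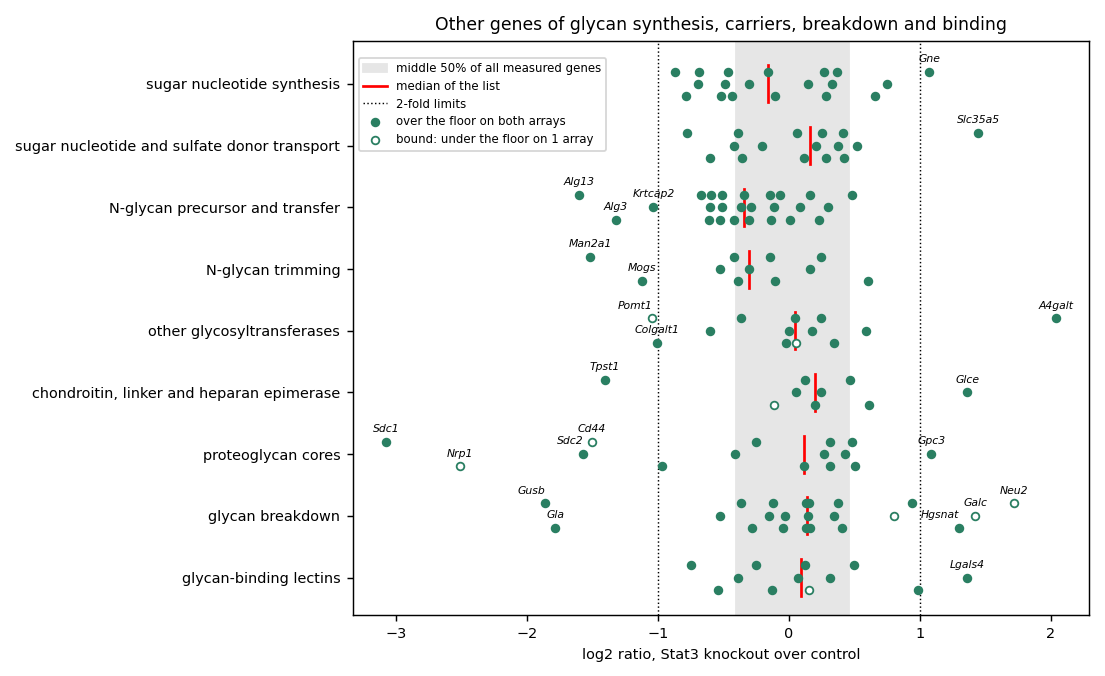
log2 ratio of knockout over control for the measured genes of 9 lists outside the enzyme families above, one row per list, with open points for bounds, a red bar at each list's median, dotted lines at 2-fold and a grey band for the middle 50% of all measured genes. Of the genes shown as filled points, Sdc1 has the lowest ratio (-3.07) and A4galt the highest (2.04), and the medians lie between -0.34 and 0.20.

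The only error that could be measured on these ratios was the disagreement between probe sets of 1 gene, which covers neither animals nor arrays. Among the 12 genes with several probe sets over the floor on both arrays (31 probe sets), the log2 ratios of a gene had an SD of 0.32 per probe set, beside 0.31 over 2853 genes of the whole array. Only B3gnt5 among these 12 was past the limit in its brightest probe set, and its other probe set was past it too. For Galnt2, Galnt10, Hs2st1 and B4galt6 the probe sets lay on both sides of 0. Of the 16 genes past the limit, 12 had a single probe set and 3 had another one over the floor on an array, all 3 in the same direction.

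**Figure D4:**
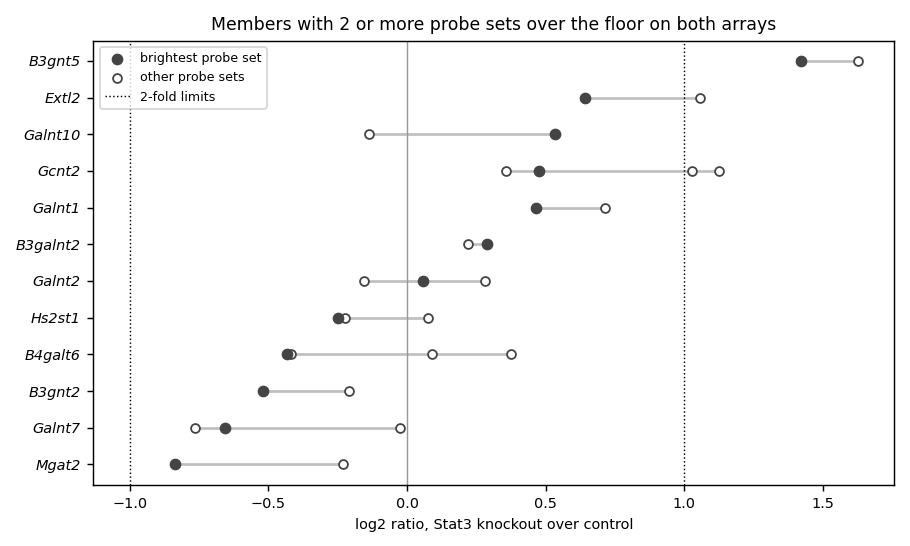
log2 ratio of knockout over control for each probe set of the 12 genes with several probe sets over the floor on both arrays; filled points are the brightest probe set, open points the others, and dotted lines mark 2-fold. The B3gnt5 probe sets lie at 1.42 and 1.63, and those of B4galt6 spread from -0.43 to 0.37.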

How the data were processed

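The 2 samples were 1 control and 1 Stat3 knockout, grouped by their genotype label. Per the labels' protocols, epithelium was freed with trypsin and 100 ng of RNA was labelled per array (Affymetrix Mouse Genome 430A 2.0). The deposited values are intensity on a linear scale, made with MAS5 in Affymetrix Expression Console 1.1, per the submitters' processing notes. Their trimmed mean (2% off each end) was 150.0 on each array, which shows a common scaling by the authors. Probe-level data and detection calls were not analysed here, and the labels give no hybridisation batch. The labels' extraction text names human stromal cells, against the mouse epithelium named elsewhere.

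Of 22690 probe sets, 64 were controls and 20380 named 1 gene in the platform annotation, which can be old; 691 named several genes and 1555 no gene. Only those with 1 gene were named; 1 probe set of several genes, one of them Chst11, was left out. Symbols were updated through RefSeq by gene ID (20351 matched). From the deposited intensity values, a floor at the 40th percentile, the brightest probe set per gene and the log2 ratio of knockout over control were computed in Python 3.11.15 with pandas 2.3.3, with no pseudocount. The steps were tested on simulated data. With 1 array per group no test exists; arrays give no counts, and their number limits the precision. Named were all genes of the families past 2-fold, the 3 brightest of each role and, for completeness, their relatives. Of the other lists, up to 4 genes past 2-fold with the largest ratio and 2 brightest others were named. Gpc3 and Hgsnat, the remaining genes past 2-fold in those lists, were added, as was Stat3. The members and lists were chosen with earlier results of these data known. Alternatives changed the scaling, the floor, the probe set rule or the fold limit.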

Additional observations from a re-analysis of the deposited data

How the results depend on the processing

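The counts of 9 lower and 7 higher genes moved with the floor, the probe set and the size limit. They were 16 and 16 of 90 genes with a floor at the 20th percentile (10.2% and 10.00% of all genes), 4 and 3 of 33 at the 60th (7.27% and 5.61%), 20 and 26 of 98 with no floor (14.3% and 15.5%), and 0 and 3 of 16 with the second brightest probe set (7.64% and 7.95%). St6galnac1, a bound of 1.94, had a log2 ratio of 3.70 with no floor, above the 2.59 of Chst10. At 1.5-fold the counts were 13 and 13 of 55 (18.6% and 19.4% of all genes). At 3-fold they were 4 and 2 (4.83% and 1.72%), and at 4-fold 4 and 1 (3.08% and 0.711%). Of the 16 genes past 2-fold, 15 were past it under median centring, quantile normalization and loess alike (Galnt11 was not), and 7 with the floor at the 60th percentile. None of the 16 changed direction under an alternative that gave a ratio. Changing the floor, or adding it to both signals, cannot turn a sign, however. The 12 genes with a single probe set had no other one to differ. For those 12, only the scalings could have turned the direction. Gla, lower in its brightest probe set, had a log2 ratio of 0.051 in its second. Sulf2 and B3gnt3 had no value without probe sets shared between transcripts. The median log2 ratio of the families was between -0.16 and 0.28 under every alternative run. No paired analysis was possible because each group has 1 array. Low signal limits what can be said of the 43 genes under the floor.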

Other observations

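Of 24 genes for glycan-binding lectins and glycan-reading chaperones on the array, 12 had a ratio. Past 2-fold were 1 on the higher side (8.33%, beside 7.37% of all genes) and 0 on the lower side (beside 9.92%). The median log2 ratio was 0.10. The higher one was Lgals4, which encodes the epithelial galectin 4, with 16.9 (control) and 43.5 (knockout), 2.57-fold. The bright chaperone genes Canx and Calr, which read the glucose left on new N-glycans, had 1605 and 1104, and 1905 and 1746.

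Some genes within 2-fold in their brightest probe set had the same direction in every other probe set over the floor. All 5 Ugp2 probe sets were higher in the knockout, with log2 ratios between 0.75 and 1.16, and so were the 5 Ogt probe sets, with ratios between 0.43 and 1.01, the lowest a bound. Other genes went the other way. All 5 Rpn1 probe sets were lower, with log2 ratios between -0.56 and -0.25, and so were all those of Canx, Calr and Bpnt2. The probe set of several genes that names Phactr1 and Chst11 had signals of 19.9 and 29.5 (log2 ratio 0.57).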
